A study of Mus musculus with 6 samples.

Results

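Of 41819 genes counted in mouse 3T3 fibroblasts, 8 genes of the CXC chemokine system are described. They were the ligand genes Cxcl1, Cxcl5, Cxcl10, Cxcl12 and Cxcl16, the atypical receptor genes Ackr3 and Ackr4, and the signalling receptor gene Cxcr4. The members were chosen by name, with earlier results of the comparison below known, so their differences between the groups are given as descriptions and are no independent evidence. Poly(A) RNA was sequenced from 6 dishes of a single 3T3 clone, all kept in puromycin. The clone carried a lentiviral TetOne cassette for human PARG (hPARG), the enzyme that degrades poly(ADP-ribose). The methods describe this cassette with the fluorescent protein mClover3, but the name they give the sequenced clone leaves mClover3 out. Control was 3 dishes left without doxycycline (DOX), and hPARG was 3 dishes with 500 ng/ml DOX for 72 h. All 6 dishes carried the cassette, and DOX without the cassette was not among these samples, so DOX and hPARG cannot be told apart here. Outside these samples, the paper gives qPCR of selected genes in cells without the cassette that received DOX. It also gives a western blot with more hPARG and less poly(ADP-ribose) under DOX. Neither is used here. Growth in wells of a 6-well plate is given by the labels and in 10 cm dishes by the methods, and dish is used throughout. Values listed for the dishes of a group are in the order of their numbers, 1 to 3.

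Chemokines are small secreted proteins that direct cell movement by binding G protein-coupled receptors. CXC ligands with the ELR motif, such as Cxcl1 and Cxcl5, attract neutrophils through Cxcr2, Cxcl10 attracts T cells through Cxcr3, Cxcl12 acts through Cxcr4, and Cxcl16 is a membrane-bound ligand of Cxcr6. Atypical receptors do not couple to G proteins in the usual way and take up ligand, so that less of it is left outside the cell. Ackr3 takes up Cxcl12 and Cxcl11, and Ackr4 takes up CC ligands such as Ccl19, Ccl21 and Ccl25. Fibroblasts are a known source of Cxcl12 and, when inflamed, of the ELR ligands and Cxcl10.

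Count totals lay between 21619908 and 25263818 per dish. After the group means were subtracted, the dishes numbered 2 in both groups stood apart, with longer genes higher in them (Spearman's rho across genes with exon length 0.53 in control 2 and 0.521 in hPARG 2, against -0.513 to -0.252 in the other 4 dishes), and values without both of them are given beside the results. The table holds no row for the human cassette, and mouse Parg, which is not a check of it, had between 1032 and 1400 counts in every dish. Of 7 fibroblast markers, 6 were above 1 RPKM (reads scaled by gene length and library size) in every dish, with summed CPM (counts scaled by library size, TMM-normalized) of 5482 to 6740 in control and 6105 to 7566 in hPARG. None of the 7 was called by edgeR or DESeq2, but 6 were nominally higher in hPARG and 4 had an unadjusted p under 0.05 in edgeR, with log2 fold changes of 0.58 for Col1a1, 0.39 for Col3a1, 0.30 for Thy1 and -0.40 for Pdgfra. Across all 11509 tested genes, 455 had an unadjusted p under 0.05 in edgeR. Of 7 leukocyte markers, Cd14 and Lyz2 were above 1 RPKM in every dish, Adgre1 was at 0 in all 6 and Ptprc had 0 to 5 counts, and the summed CPM was 14.0 to 18.9 in control and 11.2 to 18.3 in hPARG. Endothelial markers summed to 1.04 to 1.56 and 0.871 to 1.15 CPM, and epithelial markers to 0.585 to 1.04 and 0.596 to 0.963 CPM. Whether such cells had a part in the results was not tested.

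Promoters from RefSeq (GRCm38.p6, the build of the counts) were found for 6 of the 8 genes. None was found for Cxcl5, which also fell, or for Cxcl16, so neither was searched for motifs. Of those found, 4 are shown here. They belong to ligands that fell (Cxcl1, Cxcl10) and to a ligand and receptor pair that stayed short of the threshold (Cxcl12, Ackr3). Each run covers bases -230 to -21 of the gene's own strand, counted from the start site. Capitals mark matches to the NF-kB motif, also with any base allowed at its sixth position, and, first in Cxcl10, the core of the interferon response element (GAAANNGAA). The regions are chr5:90891015-90891224 on the plus strand for Cxcl1, chr5:92348910-92349119 on the minus strand for Cxcl10, chr6:117168305-117168514 on the plus strand for Cxcl12 and chr1:90203750-90203959 on the plus strand for Ackr3.
Cxcl1: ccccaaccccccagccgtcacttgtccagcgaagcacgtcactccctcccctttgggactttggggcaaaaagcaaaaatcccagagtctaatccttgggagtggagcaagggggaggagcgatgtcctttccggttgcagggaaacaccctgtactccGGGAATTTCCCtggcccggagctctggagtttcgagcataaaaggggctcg
Cxcl10: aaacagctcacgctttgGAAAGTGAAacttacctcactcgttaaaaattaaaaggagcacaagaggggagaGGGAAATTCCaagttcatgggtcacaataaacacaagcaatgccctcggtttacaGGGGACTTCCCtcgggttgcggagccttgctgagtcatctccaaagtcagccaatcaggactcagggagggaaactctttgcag
Cxcl12: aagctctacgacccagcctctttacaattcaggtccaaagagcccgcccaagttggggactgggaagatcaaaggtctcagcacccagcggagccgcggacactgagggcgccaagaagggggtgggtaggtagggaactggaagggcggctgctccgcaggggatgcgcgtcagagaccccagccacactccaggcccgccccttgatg
Ackr3: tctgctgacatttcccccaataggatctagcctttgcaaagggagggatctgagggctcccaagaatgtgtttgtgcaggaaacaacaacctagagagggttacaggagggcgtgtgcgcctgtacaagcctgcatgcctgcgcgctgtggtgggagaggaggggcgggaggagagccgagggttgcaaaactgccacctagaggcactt

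Both strands of the whole 300 bases of each promoter were searched. Cxcl1 held the NF-kB motif at -71 to -62, with an overlapping match on the other strand at -70 to -61, and Cxcl10 held it at -159 to -150 and at -103 to -94. When any base was allowed at the sixth position of the motif, a search added after the data were seen, Cxcl10 gained a match at -104 to -95 that overlaps the last one. The interferon core lay in Cxcl10 at -213 to -205. Neither pattern was matched in Cxcl12, Ackr3, Ackr4 or Cxcr4. Of 32817 promoters of this length, 4.5% held the NF-kB motif, 8.46% held it with any sixth base, and 8.55% held the interferon core. The letters ACGTG, the core of the hypoxia element, were present in Cxcl1 at -196 to -192 and in Ackr4 at -212 to -208, both on the other strand, and in 19.6% of all promoters. TATAAA was found at -8 to -3 in Ackr3, at -185 to -180 in Ackr4 and in 2 overlapping matches between -32 and -25 in Cxcr4, against 13.6% of all promoters. A match describes letters only and is neither a bound site nor a cause.

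Low counts, at most 8 in any dish, kept Cxcl16, Ackr4 and Cxcr4 from passing the filter that edgeR applies. The other 5 of the 8 genes passed it. Cxcl1, Cxcl5 and Cxcl10 fell in hPARG, whereas Cxcl12 and Ackr3 did not reach the threshold, which was a false discovery rate (FDR, Benjamini-Hochberg over 11509 tested genes, edgeR's quasi-likelihood test) under 0.05 and more than 2-fold. These 3 calls stand beside 10 of all tested genes, or 0.0869%, of which 9 were lower, or 0.0782%. The dishes of the groups did not overlap, with hPARG lower, in 4 of the 8 genes, the 3 called ones and Cxcl12, and in none with hPARG higher. Across all tested genes 9.62% did not overlap and 6.00% did so with hPARG lower. The median log2 fold change over all tested genes was 0.00. In bulk RNA, fewer producing cells and less RNA per cell cannot be told apart.

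**Figure D1:**
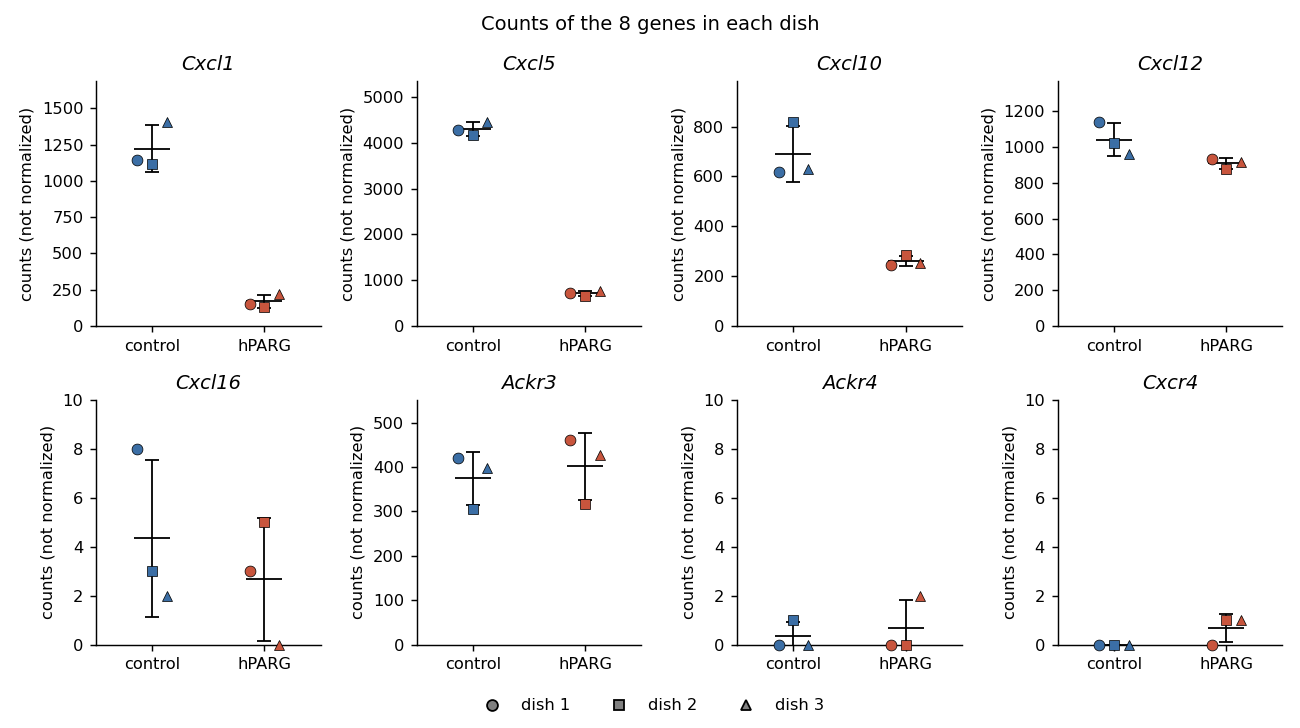
Each panel plots the counts of 1 gene (y axis, not normalized) in the 3 control and 3 hPARG dishes, with symbols for dish number and a bar for mean ± SD. Cxcl1, Cxcl5 and Cxcl10 are separated between the groups, Cxcl12 lies slightly lower in hPARG, Ackr3 overlaps, and the y axis of Cxcl16, Ackr4 and Cxcr4 ends at 10 counts.

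Cxcl5, which encodes an ELR ligand and lies at chr5:90759360-90761624 on the plus strand (ENSMUSG00000029371), had the highest level per length of the 8 genes in both groups, although in counts it lay below Cxcl12 in every hPARG dish. Its counts were 4283, 4164 and 4460 in control and 715, 660 and 765 in hPARG. All 3 hPARG dishes lay far below all 3 control dishes, and the dishes of a group lay close together. Per length, its level was 109 ± 10.1 RPKM (SD, n = 3) in control and 18.2 ± 1.90 RPKM in hPARG. The log2 fold change of Cxcl5 was -2.55 (SE 0.143, FDR 0.00153 by edgeR), a 5.85-fold decrease. Without both dishes numbered 2 it was -2.47, and it was called with each dish left out in turn.

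Cxcl1, the other ELR ligand among the 8 genes, lies 129.6 kb from Cxcl5 at chr5:90891241-90893115 on the same strand (ENSMUSG00000029380). Its counts were 1146, 1117 and 1407 in control and 154, 134 and 223 in hPARG. Dish 3 was the highest of each group, and the groups were far apart. The level was 51.4 ± 9.58 RPKM (SD, n = 3) in control and 7.20 ± 2.08 RPKM in hPARG. The log2 fold change of Cxcl1 was -2.80 (SE 0.252, FDR 0.0089 by edgeR), a 6.98-fold decrease, and -2.67 without both dishes numbered 2. Leaving out hPARG dish 1 raised the FDR to 0.118 at a log2 fold change of -2.76, and the gene stayed called with any other single dish left out.

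Cxcl10, the interferon-inducible ligand of Cxcr3, lies at chr5:92346638-92348889 on the minus strand (ENSMUSG00000034855), and 5.91% of its exon bases are shared with Art3 on the other strand. Since the sources used here do not state whether strand was used in counting, reads in that stretch cannot be assigned. Counts of Cxcl10 were 619, 819 and 630 in control and 246, 285 and 252 in hPARG. Normalized, the control dishes had 24.2, 35.2 and 29.7 CPM and the hPARG dishes 11.3, 11.7 and 11.6 CPM, so the control dishes were spread widely with dish 2 the highest, and no hPARG dish reached them. The level of Cxcl10 fell from 18.2 ± 3.73 RPKM (SD, n = 3) to 6.88 ± 0.264 RPKM. Its log2 fold change was -1.36 (SE 0.150, FDR 0.0266 by edgeR), a 2.57-fold decrease. The size of the difference moved little when dishes were left out (-1.23 without both dishes numbered 2), but its FDR was 0.257 without hPARG dish 1, 0.257 without hPARG dish 3 and 0.0849 without control dish 3.

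**Figure D2:**
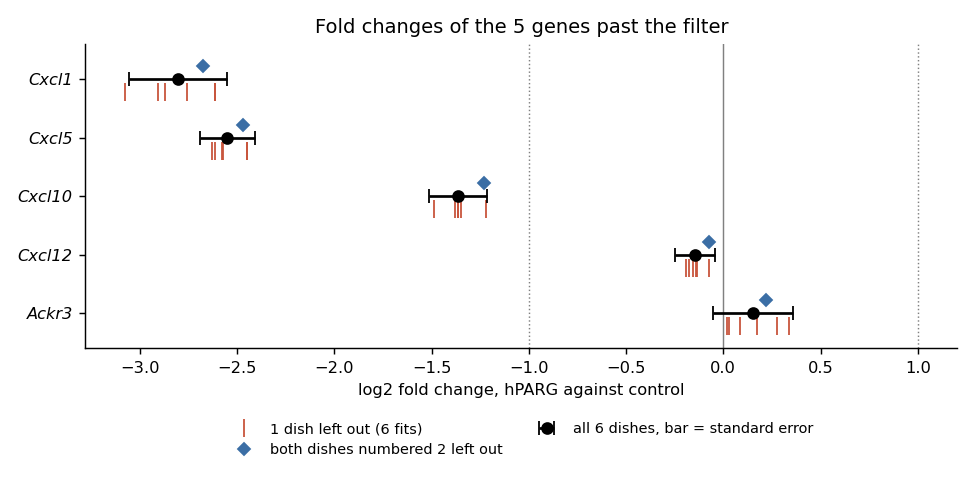
The x axis gives the log2 fold change of hPARG against control for the 5 genes past the filter, with black points and bars for the estimate and its standard error, red ticks for the 6 fits that leave out 1 dish, and blue diamonds for the fit without both dishes numbered 2. Cxcl1 and Cxcl5 lie between -3.08 and -2.45 in every fit, Cxcl10 between -1.49 and -1.22, and Cxcl12 and Ackr3 on either side of 0, short of the dotted lines at 2-fold.

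Cxcl12, the ligand shared by Cxcr4 and Ackr3, lies at chr6:117168535-117181367 on the plus strand (ENSMUSG00000061353). Its counts were 1141, 1024 and 959 in control and 934, 876 and 918 in hPARG. Normalized, the control dishes lay within a narrow range of 44.0 to 45.2 CPM, and the hPARG dishes had 42.8, 36.1 and 42.1 CPM, all below it. The level was 5.78 ± 0.127 RPKM (SD, n = 3) in control and 5.11 ± 0.382 RPKM in hPARG. The log2 fold change of Cxcl12 was -0.14 (SE 0.103, FDR 0.999 by edgeR), and -0.07 without both dishes numbered 2, of which hPARG dish 2 is the lowest value of the series. The difference did not pass the threshold, which does not show that the levels were equal.

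The membrane-bound ligand gene Cxcl16 (chr11:70453983-70459984, minus strand, ENSMUSG00000018920) had 8, 3 and 2 counts in control and 3, 5 and 0 in hPARG. These values lie around the floor of 3 counts, which equals 0.119 to 0.139 CPM in these dishes, and no fold was computed. With Zmynd15 on the other strand Cxcl16 shares 18.3% of its exon bases.

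Ackr3, which binds and internalizes Cxcl12, lies at chr1:90203980-90216751 on the plus strand (ENSMUSG00000044337) and was the only receptor gene among the 8 with counts above the floor. Its counts were 420, 306 and 397 in control and 460, 317 and 427 in hPARG. Dish 2 was the lowest of both groups, and the groups overlapped. The level was 4.44 ± 0.624 RPKM (SD, n = 3) in control and 4.84 ± 1.09 RPKM in hPARG. The log2 fold change of Ackr3 was 0.15 (SE 0.205, FDR 0.999 by edgeR), and 0.22 without both dishes numbered 2.

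Ackr4 (chr9:104084157-104126933, minus strand, ENSMUSG00000079355), the receptor that takes up Ccl19, Ccl21 and Ccl25, had 0, 1 and 0 counts in control and 0, 0 and 2 in hPARG. Cxcr4 (chr1:128588199-128592293, minus strand, ENSMUSG00000045382), the signalling receptor of Cxcl12, had 0 counts in all 3 control dishes and 0, 1 and 1 in hPARG dishes 1 to 3. Both lay at or under the floor in every dish, so neither was detectable at this depth in either group. A count of 0 allows up to 3 counts, or 0.119 to 0.139 CPM, and this floor covers counting error only. No ratio of Cxcl12 or Ackr3 to Cxcr4 was computed for the same reason.

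Ordered by level per length, the control dishes gave Cxcl5, Cxcl1, Cxcl10, Cxcl12 and Ackr3 from high to low, and the dishes of no neighbours among these 5 overlapped. In hPARG the order of mean RPKM was the same, but Cxcl1 at 5.39 to 9.48 RPKM overlapped Cxcl10 at 6.71 to 7.19 RPKM, and Cxcl12 at 4.69 to 5.44 RPKM overlapped Ackr3 at 3.63 to 5.73 RPKM. The gene lengths behind the deposited RPKM were not those of all annotated exons together. Cxcl1 and Cxcl5 have nearly equal exon unions of 1875 and 1863 bases, whereas the RPKM and count totals imply lengths of 1027 to 1047 and 1698 to 1730 bases. These implied lengths rest on the count totals. With exon unions as lengths, the median tested gene gave library totals of 0.930 to 0.948 of the count totals. The shortfall for Cxcl5 may therefore come partly from the total. The ratio of the lengths of Cxcl1 and Cxcl5 does not depend on it. With CPM per kilobase of the exon union instead, Ackr3 had the second highest mean in hPARG at 5.35 ± 1.27 (SD, n = 3), against 5.12 ± 0.105 for Cxcl10, 4.93 ± 0.451 for Cxcl12 and 4.06 ± 1.28 for Cxcl1. In control, Cxcl12 at 5.39 to 5.53 overlapped Ackr3 at 3.93 to 5.59 on this scale. The order of these 4 genes in hPARG, and the separation of Cxcl12 from Ackr3 in control, therefore depended on the length used, and Cxcl5 at 17.0 ± 2.18 lay above them on this scale as well.

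Ligands were then related to Ackr3 within each dish, where library scaling cancels. The ratio of Cxcl12 to Ackr3 in RPKM was 1.27, 1.56 and 1.13 in control and 0.949, 1.29 and 1.01 in hPARG. The groups overlapped, and the ratio was highest in dish 2 of each. On the log2 scale the ratio was 0.39 ± 0.238 (SD, n = 3) in control and 0.10 ± 0.237 in hPARG, a difference of -0.29, close to 1 SD. The difference was -0.29 without both dishes numbered 2, but it ranged from -0.42 without hPARG dish 2 to -0.16 without control dish 2 when 1 dish was left out. Per kilobase of the exon union the ratio of Cxcl12 to Ackr3 was 1.15 in control and 0.939 in hPARG (geometric means). The difference on the log2 scale is the same by construction, since gene length cancels from it.

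The ratio of Cxcl5 to Ackr3, computed on the same scale although Ackr3 is not known as its receptor, was 21.7, 28.9 and 23.9 in control and 3.30, 4.43 and 3.81 in hPARG. The ratio of Cxcl1 to Ackr3 was 9.59, 12.8 and 12.5 in control and 1.18, 1.49 and 1.83 in hPARG, and that of Cxcl10 to Ackr3 was 3.25, 5.90 and 3.50 in control and 1.18, 1.98 and 1.30 in hPARG. None of these 3 ratios overlapped between the groups. Their log2 differences were -2.69 for Cxcl5, -2.97 for Cxcl1 and -1.49 for Cxcl10, each slightly further from 0 than the ligand's own fold change because Ackr3 was nominally higher in hPARG. Without both dishes numbered 2 the log2 differences were -2.68 for Cxcl5, -2.89 for Cxcl1 and -1.44 for Cxcl10. As geometric means, the ratio to Ackr3 went from 24.6 to 3.82 for Cxcl5, from 11.5 to 1.47 for Cxcl1, from 4.06 to 1.45 for Cxcl10 and from 1.31 to 1.07 for Cxcl12 in RPKM. Per kilobase of the exon union the ratio went from 20.8 to 3.23 for Cxcl5, from 5.86 to 0.749 for Cxcl1 and from 2.74 to 0.977 for Cxcl10. Whether Cxcl1, Cxcl10 and Cxcl12 lay above or below Ackr3 in hPARG therefore depended on the length used. The log2 differences between the groups cannot depend on it, because a gene length is the same in every dish and cancels.

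**Figure D3:**
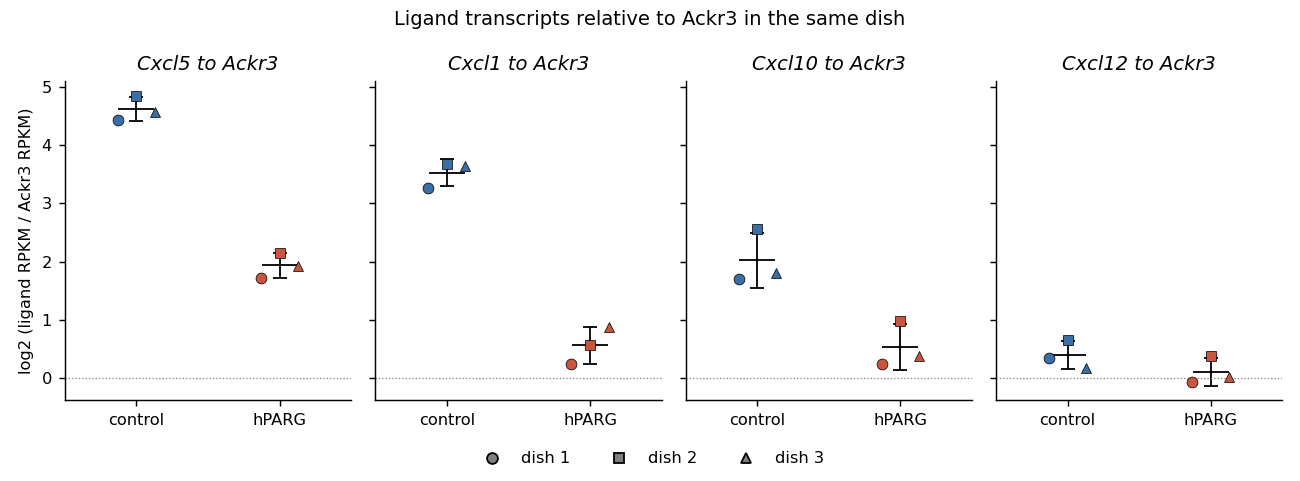
Each panel plots the log2 ratio of the RPKM of 1 ligand gene to that of Ackr3 in the same dish (y axis) for control and hPARG, with symbols for dish number and bars for mean ± SD. The ratios of Cxcl5, Cxcl1 and Cxcl10 are lower in all hPARG dishes, while that of Cxcl12 overlaps between the groups around 0.

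The RPKM of all 15 CXC ligand genes in the table summed to 164, 186 and 205 in control and to 38.3, 33.7 and 41.7 in hPARG. Cxcl5 held 59.0% ± 1.13 (SD, n = 3) of this sum in control and 48.1% ± 1.23 in hPARG, and Cxcl1 held 27.7% ± 2.34 and 18.8% ± 3.51. Both shares were lower in every hPARG dish than in every control dish. Cxcl10 held 9.83% ± 1.85 in control and 18.3% ± 2.68 in hPARG, although its level fell, because the ELR ligands fell further. Cxcl12, whose level was nearly flat, held 3.15% ± 0.391 in control and 13.5% ± 0.945 in hPARG. ELR ligands as a class made up 86.9% ± 1.96 in control and 67.7% ± 3.45 in hPARG, almost entirely through Cxcl5 and Cxcl1. Without both dishes numbered 2, hPARG minus control was -10.9 percentage points for Cxcl5, -8.33 for Cxcl1, 8.09 for Cxcl10, 10.2 for Cxcl12 and -18.5 for ELR ligands. Cxcl16 held 0.0352% and 0.111%, and the 10 ligands outside the 8 genes together held 0.320% and 1.18%.

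**Figure D4:**
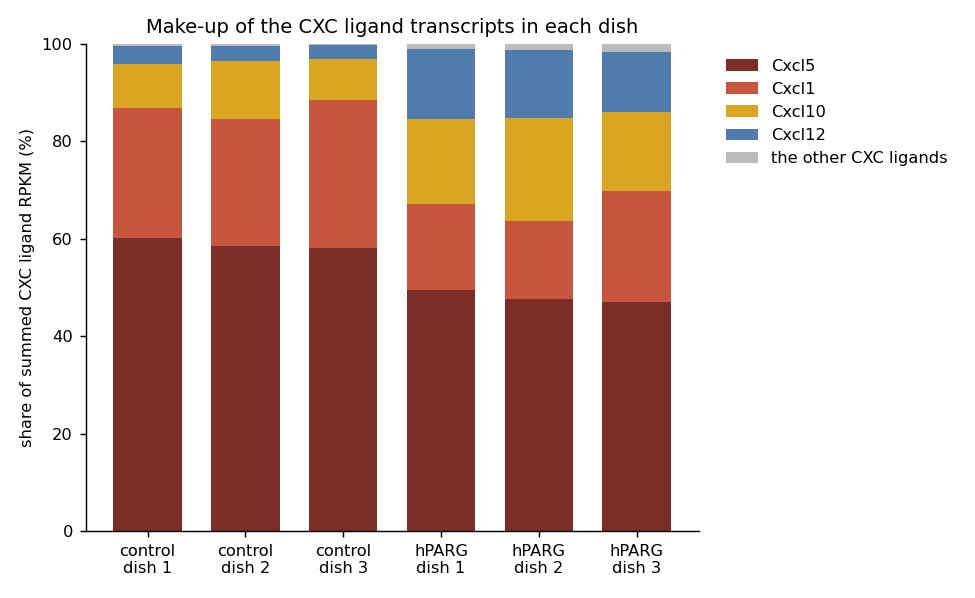
Stacked bars give the share (%, y axis) of the summed RPKM of 15 CXC ligand genes held by Cxcl5, Cxcl1, Cxcl10, Cxcl12 and all others in each of the 6 dishes. The share of Cxcl12 is between 2.75% and 3.53% in control and between 12.4% and 14.2% in hPARG, and that of Cxcl5 is the largest in every dish.

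The high ligand genes lay among relatives with few or no counts. Between Cxcl5 and Cxcl1 on chromosome 5 lie Ppbp, with 6 to 14 counts per dish, and Pf4, Cxcl3 and Cxcl15, with at most 2 counts. Cxcl2, which encodes an ELR ligand close to Cxcl1 in sequence and next to it on the chromosome, had 0 to 4 counts. Cxcl10 is flanked by the other Cxcr3 ligand genes, Cxcl9 with 0 to 3 counts and Cxcl11 with 0 to 13. Of the 10 CXC ligand genes outside the members none passed the filter, 6 were at or under 3 counts in every dish, and Cxcl13 and Cxcl17 were at 0 in all 6.

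**Figure D5:**
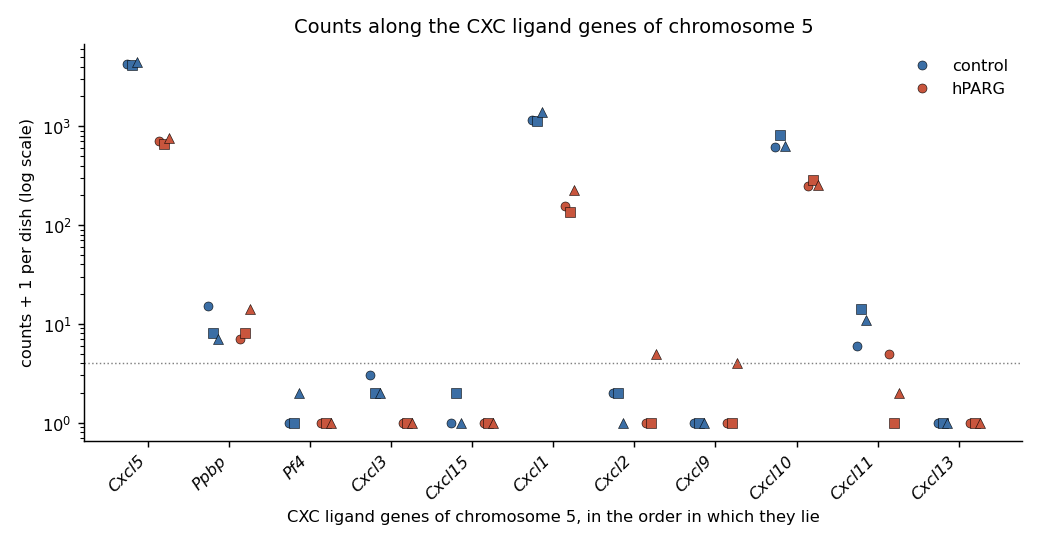
Counts plus 1 per dish (y axis, log scale) are plotted for 11 CXC ligand genes of chromosome 5 in the order in which they lie, in blue for control and red for hPARG (circle, square and triangle for dishes 1 to 3), with the dotted line at the floor of 3 counts. Cxcl5, Cxcl1 and Cxcl10 stand above 100 counts in every dish, and no gene between or beside them exceeds 14.

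The signalling receptors of these ligands were not detectable at this depth. All 6 CXC receptor genes, Cxcr1 to Cxcr6, had 3 counts or fewer in every dish, and 3 of them were at 0 in all 6. Of 6 atypical receptor or decoy genes only Ackr3 passed the filter. Ackr1, which binds many inflammatory chemokines, had 1 to 9 counts, Ackr2, a scavenger of CC ligands, 0 or 1, Ccrl2 0 to 6 and Gpr182 4 to 16. For Ackr4, 5 genes of its CC ligands were counted, of which 2 passed the filter and 1 was called. Ccl20, which attracts cells with Ccr6, had 185, 305 and 276 counts in control and 23, 25 and 28 in hPARG, with a log2 fold change of -3.30 (SE 0.287, FDR 0.00853 by edgeR), and the call was lost without hPARG dish 1 or 3. Without both dishes numbered 2, the count of called genes in this list was again 1. Ccl25 had 243, 172 and 195 counts in control and 205, 150 and 184 in hPARG, with a log2 fold change of -0.12.

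Genes that act on chemokine receptors or hold and cut their ligands did not pass the threshold. The counts below at an unadjusted p under 0.05 (edgeR) stand beside 455 of all 11509 tested genes. Of 9 arrestin, receptor kinase and Gi subunit genes 7 were tested and 0 were called by edgeR or DESeq2, 0 had an unadjusted p under 0.05, and their log2 fold changes ran from -0.08 to 0.17 with a median of 0.03. Arrb2, the arrestin that chemokine receptors recruit, had a level of 19.1 ± 0.410 RPKM (SD, n = 3) in control and 17.7 ± 1.49 RPKM in hPARG. The 11 heparan sulfate genes make the surface sugars that hold chemokines or encode proteins that carry them. Of these, 0 were called by either tool and 0 had an unadjusted p under 0.05. Nominally 10 were higher in hPARG, with log2 fold changes from -0.06 to 0.25 and a median of 0.03. Of 6 protease genes 0 were called by either tool and 1 had an unadjusted p under 0.05, Mmp2, which cuts Cxcl12, at 12 to 20 counts in control and 6 or 7 in hPARG (log2 fold change -1.31, SE 0.393, FDR 0.894 by edgeR). Mif, a further ligand of Cxcr4, Adm, a peptide taken up by Ackr3, and Cd74, the receptor partner for Mif, were tested, with 0 called by either tool and 0 at an unadjusted p under 0.05, and Mif had a log2 fold change of 0.19.

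The genes most like each member were found among 10840 genes by Pearson's r of log2 CPM over the 6 dishes, which share libraries, so r is a description. For Cxcl1, Cxcl5 and Cxcl10 the difference between the groups drives this r. The genes most like them were therefore bound to be lower in hPARG too. Saa3, a serum amyloid A gene, was most like both Cxcl1 and Cxcl5 (r = 0.996 each), followed by the other ELR ligand at 0.993. Next were Itgb2 for Cxcl1 (0.991) and Lcn2, which encodes an iron-carrier-binding protein, for Cxcl5 (0.993). Ccl20 was most like Cxcl10 (0.993), with Traf1 (0.991) and Bbc3 (0.989) next. Those of Cxcl12 were Tpm3-rs7 (0.994), Oas1a (0.993) and Slc22a5 (0.991), and those of Ackr3 were Blvrb (0.997), Serpinh1 (0.996) and Mipep (0.995). With the group means subtracted, r with Cxcl1 was 0.910 for Saa3 and 0.959 for Itgb2, and r with Cxcl5 was 0.930 for Saa3 and 0.782 for Lcn2. Likewise, r with Cxcl10 was 0.848 for Ccl20, 0.937 for Traf1 and 0.886 for Bbc3. It was 0.984 to 0.989 for the genes named with Cxcl12, and 0.997 for each of those named with Ackr3. The groups differed little in Cxcl12 and Ackr3, so for them this second r nearly repeats the r used for picking. With the highest r picked among 10840 genes over 6 dishes, such values can arise from the picking alone.

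After the group means were subtracted, only the spread between dishes of a group was left. In it, Cxcl1, Cxcl5, Cxcl12 and Ackr3 were positively correlated with each other, with hPARG dish 2 the lowest in each. Their directions did not match in every dish. Ackr3 alone lay above its group mean in control dish 1 (0.04 in log2 CPM), and Cxcl1 alone lay below its own in hPARG dish 1 (-0.06). Cxcl12 spread little in control (-0.02 to 0.02), so its r rests largely on the hPARG dishes, with dish 2 at -0.16. Pearson's r was 0.945 between Cxcl1 and Cxcl5 and 0.890 between Cxcl12 and Ackr3. Across these pairs it was 0.780 for Cxcl5 and Ackr3, 0.762 for Cxcl5 and Cxcl12, 0.695 for Cxcl1 and Ackr3 and 0.673 for Cxcl1 and Cxcl12. For Cxcl10, with control dish 2 high, r was 0.101 with Cxcl1, 0.179 with Cxcl5, -0.14 with Cxcl12 and -0.40 with Ackr3. These values rest on 6 dishes that differ in how longer genes were read, and the part of that in the correlations was not tested.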

How the data were processed

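RNA of 6 dishes was used, 3 per group. Per the methods, the authors trimmed adapters from 150 bp paired-end reads and mapped them to GRCm38 (Ensembl release 96) in CLC Genomics Workbench 12.0 (mismatch cost 2, insertion and deletion costs 3, length and similarity fractions 0.8, up to 10 hits). The authors deposited counts per gene, without normalization. The authors also deposited RPKM, with counts divided by a gene length and a library total that are not stated. The deposited CPM and TPM and the authors' fold changes and p-values were not used. Genes past filterByExpr (minimum count 10) were normalized by TMM and compared with glmQLFTest (edgeR 4.0.16 with limma 3.58.1 under R 4.3.3), and SE is the absolute log2 fold change over the square root of F. The fits were also run on simulated data, whose spread between dishes was estimated with the replicate number as a block. The main fit has no such block, so that run checks the code only and not performance at the spread of these dishes. Alternatives were DESeq2 1.42.0, RLE factors, library size only, other filters, the replicate block, a pseudocount of 0.1 RPKM, other length scales and each dish left out. Replicates differed beyond sampling noise (chi-square per gene 15.2 to 75.7). Per the methods, the 6 dishes were plated together from cells of the same clone, so they were not separate cultures in time. The p-values therefore measure the spread between such dishes, which may be technical. Positions of genes are those of GENCODE release M21. Genes named are the 8 members, genes of the lists given and the 3 genes most like each member. The members and lists were chosen with earlier results of these data known.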

Additional observations from a re-analysis of the deposited data

How the results depend on the processing

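The log2 fold changes of the 5 genes past the filter kept their direction under all 13 alternatives of the fit, with ranges of -3.08 to -2.61 for Cxcl1, -2.63 to -2.45 for Cxcl5, -1.49 to -1.22 for Cxcl10, -0.19 to -0.07 for Cxcl12 and 0.02 to 0.34 for Ackr3. The number of called genes was 10, and it was 16 with no filter on low counts, 22 with DESeq2, 19 without both dishes numbered 2 and 3 to 13 with 1 dish left out (3 without hPARG dish 1, 5 without hPARG dish 3). Called members were 3, and 1 to 3 with 1 dish left out, 1 being Cxcl5 alone without hPARG dish 1. Called CC ligands of Ackr4 were 1, and 0 to 1 with 1 dish left out. With the replicate number as a block, 23 genes were called, the 3 members among them. The cause of the higher counts was not tested. The numbers were not taken as pairs, since same-numbered dishes correlated in their deviations at 0.0963, 0.61 and 0.168, and control dishes 1 and 3 correlated best with hPARG dishes 3 and 1. Shares of the ligand sum depended on length: hPARG minus control in percentage points was 29.6 for Cxcl12, -24.7 for Cxcl5, 3.16 for Cxcl10 and -32.9 for ELR ligands in CPM without length, and 11.9 for Cxcl12 and -14.0 for Cxcl5 per kilobase of the exon union, a scale added after the data were seen. With 3 dishes per group, small differences such as those of Cxcl12 and Ackr3 could not be settled, and genes near 3 counts could not be compared.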

Other observations

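Cxcl11, which encodes the ligand that Ackr3 shares with Cxcr3, had 5, 13 and 10 counts in control and 4, 0 and 1 in hPARG, and it was singled out after its values were seen. It did not pass the filter on low counts, and 41.7% of its exon bases are shared with Gm2673 on the other strand. Genes most like the called members were found over the dishes of both groups, so their own falls are no independent evidence. Itgb2, an integrin subunit of leukocytes, came after Saa3 and Cxcl5 in likeness to Cxcl1 and had a log2 fold change of -0.79 (FDR 0.436 by edgeR). Traf1, an adaptor of TNF receptors and next to Ccl20 in likeness to Cxcl10, had a log2 fold change of -1.22 (FDR 0.136 by edgeR). Lcn2, which came after Saa3 and Cxcl1 in likeness to Cxcl5, fell by 5.08 on the log2 scale (FDR 0.00432 by edgeR). Saa3, most like both ELR ligands, fell by 4.22 on the log2 scale (FDR 0.0247 by edgeR). The mean normalized counts that the paper lists for Lcn2 and Saa3 in hPARG lay near the floor for counts used here. The sizes of the falls of Lcn2 and Saa3 are therefore uncertain.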
